A study of Homo sapiens with 6 samples.

Results

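The 279 genes described here are long intergenic noncoding RNA (lincRNA) genes with the symbols LINC00001 to LINC00999. They were chosen by symbol alone, as the genes whose probe sets on the Affymetrix U133 Plus 2.0 array carry that single symbol in the platform annotation, and they make up 279 of 19775 genes with 1 symbol and 391 of 54613 probe sets. RNA came from K562 cells, a human erythroleukemia line derived from chronic myeloid leukemia, carrying a doxycycline-inducible ERG construct (pTRE ERG). Each of 3 stably transfected clones, CL4, CL9 and CL46, was grown with 1 µg/ml doxycycline for 8 days (ERG-induced, 3 arrays) and without it (non-induced, 3 arrays). The study gives a shorter time for these clones in another place, so the length of treatment is uncertain. A clone descends from a single transfected cell, so the spread measured here is that between clones, and each clone has 1 array per condition. Doxycycline was given to the induced cultures only, so ERG and the drug itself cannot be told apart. All 279 genes entered the fit, since the deposited ratios allow no filter on low signal.

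LincRNA genes are transcribed from the stretches between protein-coding genes, and their RNAs carry no long open reading frame. Some act on chromatin near their own locus and others bind proteins or microRNAs elsewhere in the cell, and many are restricted to a tissue and present at low levels. The numbered LINC symbols were given to genes before a function was known, so most of the members below have no established role in blood cells, and a role is stated only where one is well described.

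Averaged over its probe sets, ERG stood at log2 ratios of 0.15, -0.93 and -0.71 in the arrays labelled ERG-induced (CL4, CL9 and CL46), against 1.503, -0.13 and -0.57 in the arrays labelled non-induced. It was thus lower in the arrays labelled ERG-induced of every clone. Whether these probe sets lie in the introduced sequence is not known, so labels could not be checked with them, and arrays go by their labels here. The deposited values are ratios of each probe set to its median over the 6 arrays, which hold no brightness, so it cannot be said how far a signal stood above background, and levels cannot be set against each other between genes. The control probe sets for 18S ribosomal RNA, a sign of RNA quality, stood higher after induction in each clone, with log2 differences of 1.21 (CL4), 0.59 (CL9) and 0.82 (CL46). Of 9 megakaryocyte markers measured, 3 were called higher (GP1BA, ITGB3 and SELP), and of 8 erythroid markers 0 were called higher and 1, TFRC, lower. Of 6 endothelial markers measured 3 were called higher (CDH5, ESAM and PECAM1), of 6 fibroblast markers 1 was higher (FAP) and 1 lower (COL1A1), of 5 lymphocyte markers 1 was lower (CD3D), and of 7 monocyte and granulocyte markers 0 were called. Their part in the lincRNA values was not tested.

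Few lincRNA genes differed between the arrays labelled ERG-induced and those labelled non-induced. A member was called when it differed by at least 2-fold with p under 0.05 before adjustment (limma, two-sided), the thresholds of the study. By this rule 10 of the 279 were higher and 15 lower in the arrays labelled ERG-induced, which is 3.58% and 5.38% of the members. Over all genes the same rule called 3.12% higher and 6.32% lower (9.44% in either direction, against 8.96% of the members). The members' share was near that background, and the list as a whole did not stand apart by its calls. No member passed an adjusted p of 0.05 (limma, Benjamini-Hochberg adjustment over all 19775 genes, 0 called, 0%). The lowest adjusted p among members was 0.140, and 25 members had an unadjusted p under 0.05, which is 8.96% against 12.9% of all genes. The median log2 difference of the members, labelled ERG-induced minus labelled non-induced, was 0.01, against -0.03 over all genes. By clone, the members' median was 0.02 (CL4), 0.06 (CL9) and -0.06 (CL46).

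The lincRNA genes moved the same way in all 3 clones less often than all genes did. A direction shared by CL4, CL9 and CL46 was found for 73 members, 37 higher and 36 lower, which is 26.2% of the list. Genes are not independent replicates, so this share is a description. Over all genes 40.2% had a shared direction, 17.8% higher in all 3 clones and 22.4% lower, and over 16520 protein-coding genes 42.2% did. Other classes of noncoding genes lay near the members, with 29.8% of 560 genes numbered LINC01000 and above, 29.2% of 781 antisense genes and 26.1% of 506 genes with LOC symbols. The remaining members were split almost evenly, with 102 higher in 2 clones and lower in 1, and 104 the other way round. Across the 279 members, the differences of CL4 and CL9 correlated at a Pearson r of 0.10, those of CL4 and CL46 at 0.00 and those of CL9 and CL46 at 0.05, against 0.12, 0.11 and 0.14 across all genes. These correlations are across genes that share the same arrays and are given as a description.

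**Figure D1:**
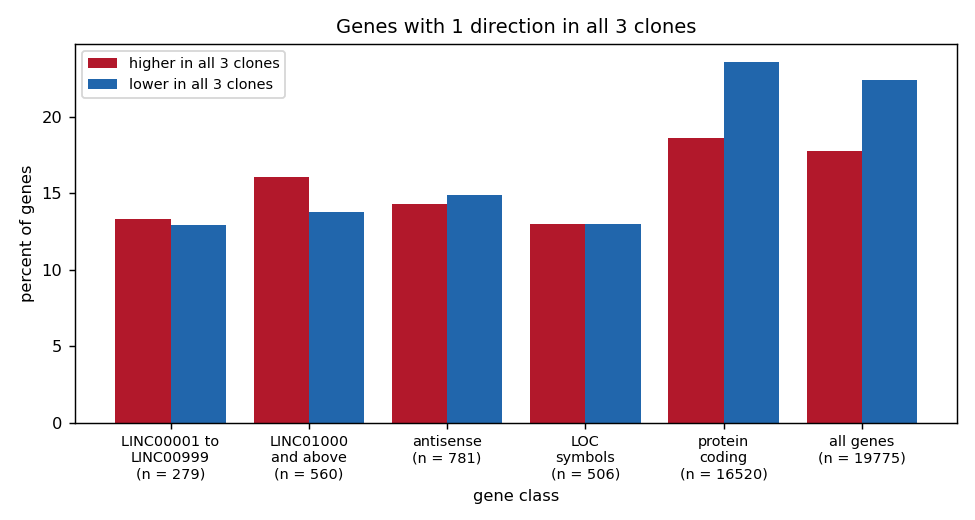
Percent of genes (y axis) whose log2 difference, labelled ERG-induced minus labelled non-induced, was above 0 in all 3 clones (red) or below 0 in all 3 (blue), for 6 classes of genes with their numbers. The LINC00001 to LINC00999 genes reach 13.3% higher and 12.9% lower, and protein-coding genes 18.6% and 23.6%.

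The members also varied more between clones of 1 condition than most genes did. The median SD within a group was 1.13 on the log2 scale for the members and 0.58 for all genes, and the middle 50% of the members ran from 0.71 to 1.64, against 0.31 to 1.07 for all genes. Other noncoding classes also lay above all genes, with medians of 1.24 for LINC01000 and above, 1.202 for LOC symbols and 0.96 for antisense genes. A mean difference of 2-fold or more was found for 36.6% of members, against 38.4% of LINC01000 and above, 34.0% of LOC symbols, 28.3% of antisense genes and 21.8% of all genes, while a p under 0.05 was less frequent among members than among all genes (8.96% against 12.9%). In single clones, 78, 74 and 63 members were higher by 2-fold or more in CL4, CL9 and CL46, and 65, 73 and 86 were lower. The shares of all genes in single clones are not given here, so these counts are not read as a trait of the members. Most members, 212 of 279, rest on 1 probe set, and these had a median SD of 1.28, against 0.68 for the 67 members averaged over 2 or more. For all genes the same pair was 0.80 and 0.51. The groups of arrays did not overlap for 10 members with all ERG-induced values above (3.58%, against 7.98% of all genes) and for 22 with all below (7.89%, against 13.6%).

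**Figure D2:**
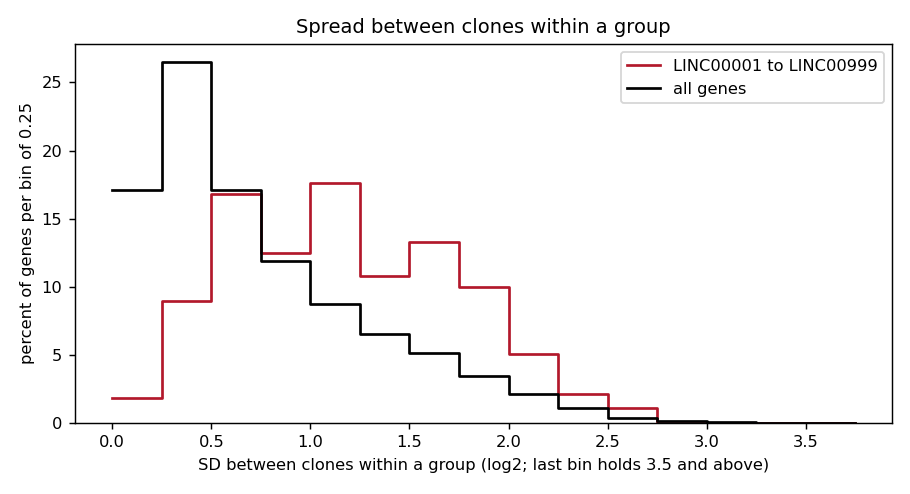
Percent of genes (y axis) in bins of 0.25 of the SD between clones within a group, in log2 units (x axis), for the 279 LINC00001 to LINC00999 genes (red) and all 19775 genes (black). The red line lies to the right, with medians of 1.13 and 0.58.

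The largest rise was in LINC00895, which lies between CLDN5 and SEPTIN5. Its log2 ratios were 1.99, 2 and 0.70 in the arrays labelled ERG-induced (CL4, CL9 and CL46), against -2.43, -1.98 and -1.40 in those labelled non-induced. All induced arrays thus stood above all non-induced ones, and the gene was 11.3-fold higher (log2 difference 3.499, SE 0.49, n = 3 against 3, limma adjusted p = 0.190). LINC00244, located between SHH and RNF32, had 3.53, 0.28 and 3.24 in the arrays labelled ERG-induced, against -0.34, -1.78 and -0.90 in those labelled non-induced. Its groups did not overlap either, with CL9 the lowest of the induced arrays, and it was 10.2-fold higher (3.35, SE 0.95, limma adjusted p = 0.274). The call was lost without CL4 (3.10) or CL46 (2.96). LINC00595, flanked by RPS24 and ZMIZ1, had 0.98, 0.41 and 0.86 in the arrays labelled ERG-induced, against -0.58, -1.56 and -2.80 in those labelled non-induced. It was 5.26-fold higher (2.39, SE 0.59) and, like LINC00895, was called whichever clone was left out.

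Of the 15 falls, that of LINC00299 was the largest, and its clones lay close together. LINC00299 lies beside ID2, an inhibitor of differentiation, and its disruption has been linked to neurodevelopmental delay. Its log2 ratios were -1.76, -2.36 and -2.77 in the arrays labelled ERG-induced, against 2.15, 1.61 and 0.77 in those labelled non-induced, and the clones differed by -3.91, -3.98 and -3.54. Every induced array stood below every non-induced one, and the gene was 14.0-fold lower (log2 difference -3.81, SE 0.47, limma adjusted p = 0.140). LINC00298, its neighbour in the same interval between RNF144A and ID2, also fell (-2.76, SE 1.08, limma adjusted p = 0.372), with -3.76, -3.76 and -0.01 in the arrays labelled ERG-induced, against 0.72, 0.03 and 0.01 in those labelled non-induced. Its fall came from CL4 and CL9 and not from CL46, where the difference was -0.01, and it was lost without CL4 (-1.90), without CL9 (-2.25) and in the fit blocked on clone (adjusted p = 0.407). LINC00189, between MAP3K7CL and BACH1, was 10.6-fold lower (-3.41, SE 1.099), with -0.40, -3.75 and -4.67 in the arrays labelled ERG-induced, against 0.41, 0.70 and 0.31 in those labelled non-induced. CL9 and CL46 carried this fall, and the call was lost without CL9 (-2.90) or CL46 (-2.63).

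The promoter windows of these members are shown because they are the largest rise, the 2 neighbouring falls at ID2 and the fall whose window held a tandem of the ETS core. ERG binds DNA through an ETS domain that recognises a GGAA core. The windows hold the 300 bases around the annotated start, from RefSeq on GRCh38.p14, which has windows for 199 of the 279 members (220 windows). Those shown are chr22:19566790-19567089, minus strand, for LINC00895, chr2:8328370-8328669, minus strand, for LINC00299, chr2:7976765-7977064, minus strand, for LINC00298, and chr21:29193244-29193543, plus strand, for LINC00189. Capitals mark the motifs searched on both strands, which were CCGGAAGT (an ETS consensus), GGAAGGAA (the core in tandem, which cannot share a core with the consensus on the same strand) and TATAAA.
LINC00895: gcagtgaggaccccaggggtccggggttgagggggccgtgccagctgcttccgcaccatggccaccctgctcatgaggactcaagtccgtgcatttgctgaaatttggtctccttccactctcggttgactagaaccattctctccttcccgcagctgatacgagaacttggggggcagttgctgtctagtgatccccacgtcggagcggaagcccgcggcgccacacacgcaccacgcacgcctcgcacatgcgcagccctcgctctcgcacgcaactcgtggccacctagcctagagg
LINC00299: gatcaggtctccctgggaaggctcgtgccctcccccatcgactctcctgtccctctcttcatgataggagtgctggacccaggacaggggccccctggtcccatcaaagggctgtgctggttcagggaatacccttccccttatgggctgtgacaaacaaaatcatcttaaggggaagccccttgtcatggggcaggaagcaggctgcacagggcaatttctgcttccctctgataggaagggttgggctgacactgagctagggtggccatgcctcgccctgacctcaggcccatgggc
LINC00298: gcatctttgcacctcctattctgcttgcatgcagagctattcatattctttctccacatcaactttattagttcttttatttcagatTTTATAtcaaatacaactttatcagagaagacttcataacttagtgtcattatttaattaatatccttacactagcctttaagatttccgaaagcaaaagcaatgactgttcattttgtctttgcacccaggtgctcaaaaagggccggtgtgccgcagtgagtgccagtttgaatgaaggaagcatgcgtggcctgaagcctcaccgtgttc
LINC00189: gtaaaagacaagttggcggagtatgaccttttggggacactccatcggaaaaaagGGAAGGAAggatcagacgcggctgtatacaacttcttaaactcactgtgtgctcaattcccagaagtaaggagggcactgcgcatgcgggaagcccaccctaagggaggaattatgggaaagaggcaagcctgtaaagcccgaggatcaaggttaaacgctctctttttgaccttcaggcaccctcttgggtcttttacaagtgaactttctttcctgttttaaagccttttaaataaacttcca
Of these, LINC00189 held GGAAGGAA and LINC00298 held TATAAA on the opposite strand, and the windows of LINC00895 and LINC00299 held none of the 3 motifs. A GGAA core by itself was not searched for and is not marked, and every window shown holds it at least once. CCGGAAGT occurred in 4 of the 220 member windows (1.82%, against 4.14% of all 35116 windows), GGAAGGAA in 12 (5.45% against 3.67%) and TATAAA in 36 (16.4% against 11.5%). Of the 25 called members, 18 had windows, 19 in all. CCGGAAGT was in 0 of these, GGAAGGAA in that of LINC00189, and TATAAA in those of LINC00298, LINC00486 and LINC00597. A match is a description of the letters, and binding was not measured on these arrays.

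The other 7 rises were smaller or leaned on 1 clone. LINC00242 was 4.90-fold higher, LINC00917, between IRF8 and FOXF1, 4.45-fold, and LINC00842 4.21-fold, and the groups of arrays overlapped in each of these. LINC00242 and LINC00917 differed most in CL9, by 4.28 and 4.24, against 1.06 and 1.54 in CL4 and 1.54 and 0.68 in CL46. LINC00348 rose 3.65-fold without overlap, with 0.24, 1.38 and 0.50 in the arrays labelled ERG-induced, against -0.44, -0.28 and -2.78 in those labelled non-induced. LINC00486 (2.80-fold), LINC00226 (2.69-fold) and LINC00587 (2.18-fold) completed the list, and LINC00587 alone of these 3 had no overlap. Each of these 7 calls was lost when a clone was left out. LINC00242 lost it without CL9 (1.30) or CL46 (2.67), LINC00917 without CL4 (2.46) or CL9 (1.11), and LINC00842 without CL9 (1.76) or CL46 (2.34). LINC00486 lost it without CL4 (1.36) or CL9 (1.62), LINC00226 without CL4 (1.55) or CL46 (1.12), LINC00587 without CL4 (0.66) or CL46 (1.27), and LINC00348 without CL4 (2.47), CL9 (1.97) or CL46 (1.16). With the clone as a block, LINC00917 (adjusted p = 0.407) and LINC00587 (adjusted p = 0.398) lost it as well.

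**Figure D3:**
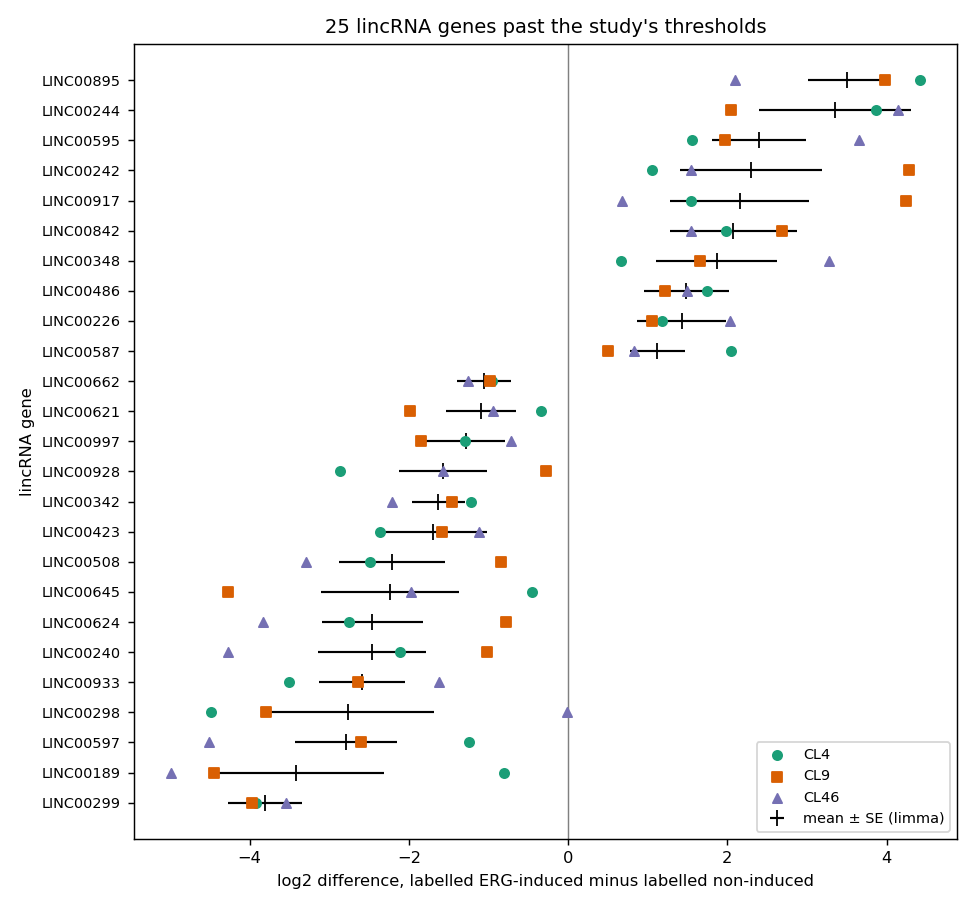
Log2 difference, labelled ERG-induced minus labelled non-induced (x axis), of the 25 called lincRNA genes (y axis), with a symbol for each of the clones CL4, CL9 and CL46 and a black line for the mean ± SE of the limma fit. LINC00299 has its 3 clones within -3.98 to -3.54, while LINC00298 ranges from -4.48 to -0.01.

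Of the other falls, those of LINC00597, LINC00933 and LINC00342 were called whichever clone was left out. LINC00597, which overlaps the kinase-like gene PEAK1, had -0.75, -1.51 and -3.01 in the arrays labelled ERG-induced, against 0.49, 1.095 and 1.5004 in those labelled non-induced. All 3 clones fell, CL46 the most, and the gene was 6.89-fold lower (log2 difference -2.79, SE 0.64, limma adjusted p = 0.221). LINC00933 had -1.25, -0.64 and -1.18 in the arrays labelled ERG-induced, against 2.26, 1.995 and 0.44 in those labelled non-induced, and was 6.01-fold lower (-2.59, SE 0.54, limma adjusted p = 0.201). Again no arrays overlapped, and CL46 fell the least.

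LINC00240 was 5.52-fold lower and LINC00624, in the interval between CHD1L and BCL9, 5.49-fold lower, with the smallest change in CL9 for each (-1.01 and -0.78). LINC00645 was 4.71-fold lower, most of all in CL9 (-4.28), and LINC00508 4.62-fold lower. LINC00423 (3.23-fold), LINC00928 (2.97-fold), LINC00997 (2.44-fold), LINC00621 (2.13-fold) and LINC00662 (2.09-fold) followed, of which LINC00928, LINC00997 and LINC00621 are named after their values were seen. Of the 15 falls, only LINC00997 had overlapping groups. The calls were made on the same arrays and favour groups that stand apart. A lack of overlap in a called rise or fall is thus a description and no further support. The calls of LINC00240 (-2.64 and -1.56), LINC00624 (-2.31 and -1.77), LINC00508 (-2.07 and -1.66), LINC00928 (-0.92 and -1.57) and LINC00662 (-1.11 and -0.97) were lost without CL4 or without CL46. Those of LINC00423 (-1.36 and -1.74) and LINC00997 (-1.28 and -1.01) were lost without CL4 or without CL9, and that of LINC00645 without CL9 (-1.22) or CL46 (-2.37). LINC00621 lost its call without CL4 (-1.47), CL9 (-0.64) or CL46 (-1.16). With the clone as a block, LINC00645, LINC00621 and LINC00928 were no longer called (each adjusted p = 0.407). In all, 6 of the 25 called members, LINC00299, LINC00597, LINC00933, LINC00342, LINC00895 and LINC00595, kept their call under all 10 alternatives run for single genes.

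**Figure D4:**
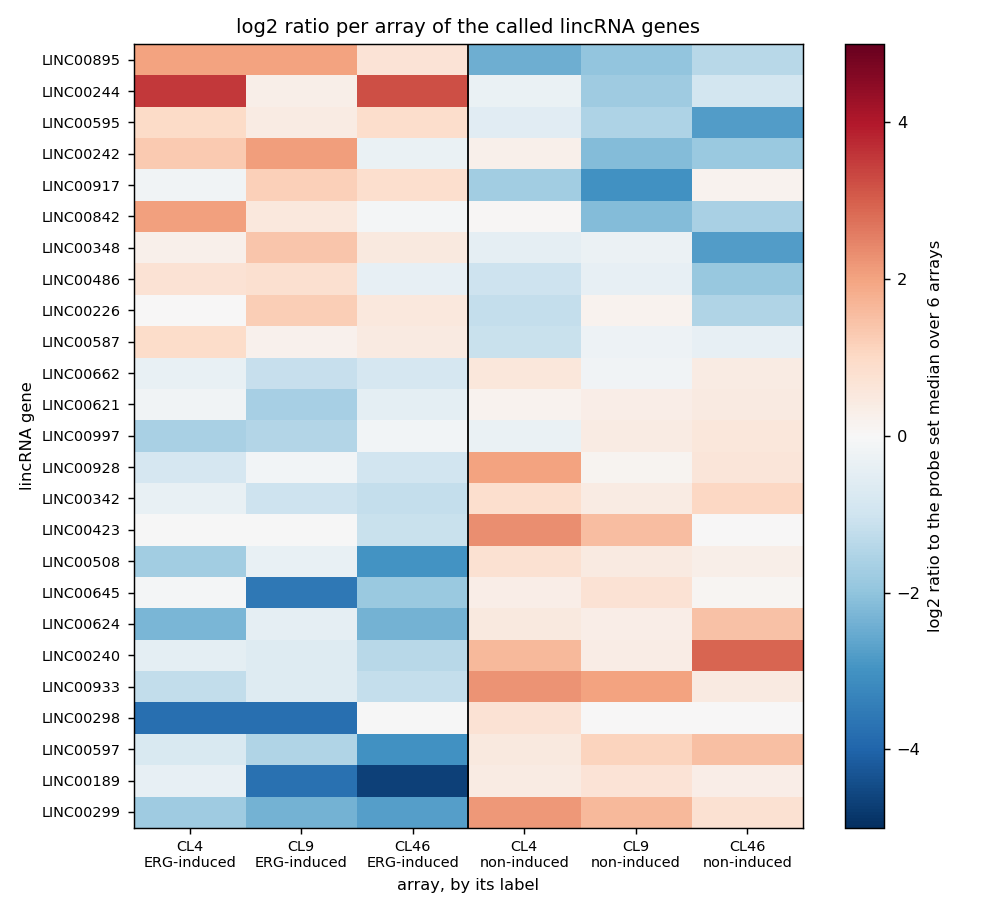
Log2 ratio to the probe set median over the 6 arrays (colour, red above and blue below 0) of the 25 called lincRNA genes (rows) in the 6 arrays (columns), with the arrays labelled ERG-induced left of the black line and those labelled non-induced right of it. LINC00298 is near -3.76 in the induced arrays of CL4 and CL9 and near 0 in that of CL46.

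Of the called members with several probe sets, only LINC00342 had every probe set called by itself. Its mean log2 ratios were -0.38, -1.04 and -1.19 in the arrays labelled ERG-induced, against 0.84, 0.42 and 1.03 in those labelled non-induced, without overlap, a 3.10-fold fall (log2 difference -1.63, SE 0.33, limma adjusted p = 0.196). Its 3 probe sets gave -1.33, -1.71 and -1.85. LINC00662, described as a promoter of growth in several tumours, was lower in 5 of 5 probe sets and in every clone of each, from -0.24 (SE 0.46) to -2.08 (SE 0.53), and 1 of the 5 was called. Its mean of -1.06 (SE 0.34, limma adjusted p = 0.309) fell short of 2-fold once arrays were centred on their medians (-0.96) or quantile normalized (-0.89).

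Elsewhere the probe sets of a gene often disagreed. Among the 67 members with 2 or more probe sets, all probe sets had 1 sign in 24 (35.8%), against 45.7% of the 10523 such genes overall. With exactly 2 probe sets it was 19 of 39 members (48.7%, against 58.9%). LINC00308 held a probe set called lower (-2.15, below 0 in all 3 clones) and another called higher (2.69, above 0 in all 3), and LINC00302 held 1 called lower (-1.92, with CL9 at 0.08) and 1 called higher (1.30, above 0 in all 3). These genes are named after their values were seen, and their averages were not called. The rise of LINC00486 came from 1 of its 3 probe sets (3.64, with 5.24, 2.61 and 3.08 in CL4, CL9 and CL46), while the others gave 0.83 (SE 1.43) and -0.02 (SE 0.86). LINC00226 and LINC00997 were called only as averages, with no probe set called by itself. The probe sets of LINC00226 gave 1.27 (SE 0.86) and 1.58 (SE 0.66), but 2.41 against -0.05 in CL4 and -0.55 against 2.67 in CL9. Those of LINC00997 gave -2.51 (SE 1.28), 0.81 (SE 0.63) and -2.16 (SE 0.90). LINC00205, with 7 probe sets the most of any member, differed by -0.47 (SE 0.36), with 5 of its probe sets between -0.22 and 0.12 and the others at -1.42 (SE 0.98) and -1.55 (SE 1.02). LINC00689 and LINC00957, with 5 each, differed by -0.35 (SE 0.28) and -0.25 (SE 0.28), and none of these 3 genes was called. Over single probe sets, 12 of 391 were called higher (3.07%, against 2.82% of all probe sets) and 22 lower (5.63%, against 8.16%). A median below 1, a sign of how the ratios were made, was found in 57 of the 391 (14.6%, against 7.21%).

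**Figure D5:**
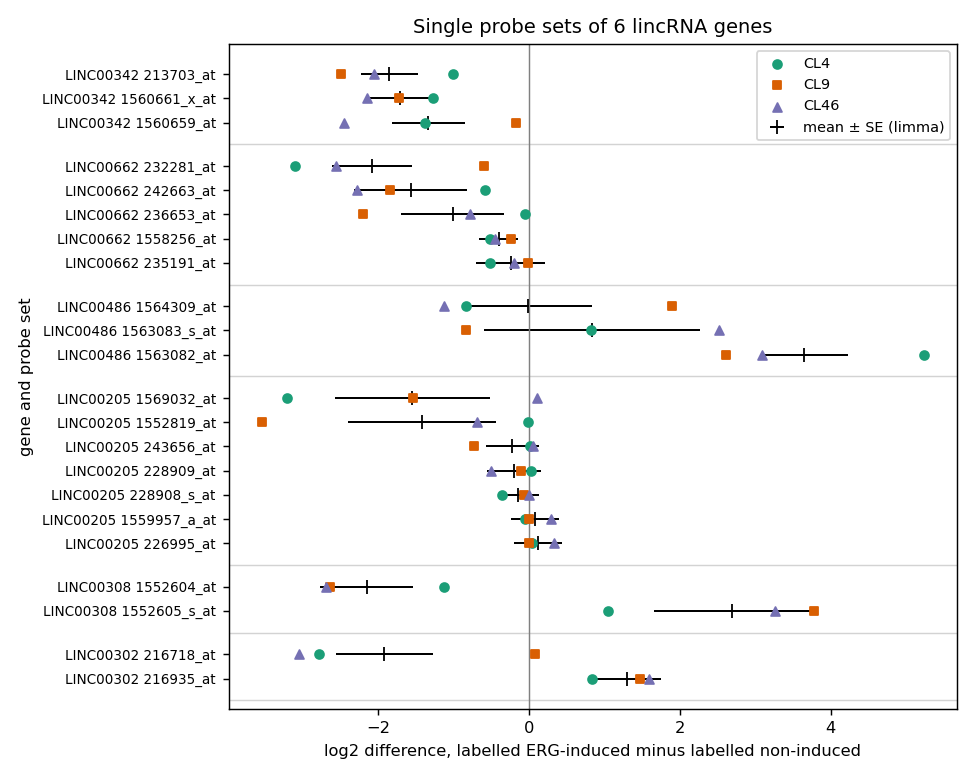
Log2 difference, labelled ERG-induced minus labelled non-induced (x axis), of the single probe sets of LINC00342, LINC00662, LINC00486, LINC00205, LINC00308 and LINC00302 (y axis), with a symbol per clone and a black line for the mean ± SE of the limma fit. The 3 probe sets of LINC00342 lie below 0, and those of LINC00308 lie on opposite sides at -2.15 and 2.69.

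LincRNAs with a described role in blood or tumours were mostly not called, as was true of all genes, of which 9.44% were called. Of 13 measured members listed for blood and leukemia, 0 rose and 2 fell, LINC00662 and LINC00189, with a median of -0.19 against -0.03 over all genes. With 3.12% of all genes called higher and 6.32% lower, lists of this size hold too few members to be read against that background. LINC00467, a target of MYCN in neuroblastoma, had -0.08, -0.44 and -0.16 in the arrays labelled ERG-induced, against 0.98, -0.03 and 0.45 in those labelled non-induced, without overlap but short of 2-fold (-0.69, SE 0.34, limma adjusted p = 0.458). LINC00528 differed by 0.51 (SE 0.41). Of 21 members listed for solid tumours, 0 rose and 1 fell, LINC00342, against 3.12% higher and 6.32% lower over all genes, with a median of -0.03. LINC00261, a neighbour of FOXA2 that is active in endoderm, differed by -1.86 (SE 0.79, limma adjusted p = 0.409), and the clones were uneven, at -3.53 (CL4), -1.24 (CL9) and -0.82 (CL46). LINC00963, first described in prostate cancer, differed by 0.56, 0.65 and 0.59 in the 3 clones (mean 0.60, SE 0.26). Its spread was low for a member, with an SD of 0.22, and its groups did not overlap, but it did not reach 2-fold. LINC00667 differed by -0.58 (SE 0.31).

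Of the 4 members listed for the nervous system 0 were called, against 9.44% of all genes, and the clones of those below disagreed. LINC00632, the host of the circular RNA CDR1as, differed by -2.68 in CL4, 2.81 in CL9 and 0.96 in CL46. LINC00844 differed by -4.23 and -3.44 in CL4 and CL9 and by 3.56 in CL46, and without CL46 it was called lower (-3.84). LINC00682 differed by 1.88, 1.56 and -0.07, and without CL46 it was called higher (1.72). Single clones thus changed by several fold in opposite directions in the same gene.

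Of the 274 members found in RefSeq by gene ID, 19 lay on the chromosome that holds ERG. Of these, 0 were higher in all 3 clones and 3 were lower in all 3 (15.8%). Members not found in RefSeq could not be placed on a chromosome and are not counted among the 19. Of all 241 genes placed on that chromosome in the same way, 14.1% were higher and 18.3% lower in all 3 clones, and of all genes 17.8% and 22.4%. The median log2 difference of the 19 members was -0.74, against -0.06 over the 241 genes placed on that chromosome, and 12 of the 19 lay below 0. By clone, these medians were -0.59 (CL4), -0.22 (CL9) and -1.45 (CL46). The induced array of CL46 held the lowest values, with a median log2 ratio of -1.31 over the 19 members and 10 of them at -1 or less, against 0.13 and 5 in the non-induced array of the same clone. Over the other 260 members, which include those not placed, the same pair of arrays had medians of -0.14 and 0.09. Of these 19, only LINC00189 was called (5.26%, against 8.71% of all genes on that chromosome and 9.44% of all genes). LINC00515 had -0.17, -0.29 and -4.30 in the arrays labelled ERG-induced, against 0.42, 0.15 and 0.65 in those labelled non-induced, so that CL46 alone made most of its difference of -1.997 (SE 1.15). LINC00310 differed by -0.88, -0.47 and -1.83 (mean -1.06, SE 0.49) and LINC00163 by 0.16, -3.62 and -1.53 (mean -1.66, SE 1.04). The within-group SD of these members was high, with a median of 1.505, and 14 of the 19 rest on 1 probe set.

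The protein-coding genes on either side of a called lincRNA gene were mostly not called, as was true of all genes. The order of genes was taken from RefSeq on GRCh38.p14, in which 274 of the 279 members were found. Around the 15 members that fell, 22 flanking coding genes were measured, counting a gene once for each member it flanks, and 0 were called higher and 0 lower. Their median log2 difference was -0.33. ID2, beside LINC00299, differed by -0.37, and BACH1, a heme-sensitive repressor of transcription beside LINC00189, by -0.96. Around 9 of the members that rose, 16 flanking coding genes were measured, of which 2 were called higher and 0 lower, with a median of 0.52. These were DLL1, a ligand of Notch receptors beside LINC00242 (1.33), and DACH1, a transcription regulator beside LINC00348 (1.41). CLDN5, the endothelial claudin beside LINC00895, differed by -0.89, and SHH, the morphogen beside LINC00244, by 1.60, and neither was called. Around uncalled members, 22 of 415 flanking genes were called higher and 30 lower, with a median of -0.03. Of all genes, 3.12% were called higher and 6.32% lower. The flanking genes of called members are too few to be read against these shares. Across the 259 members with a measured flanking gene, the log2 differences of member and nearest measured coding gene correlated at a Pearson r of 0.07, across genes that share the same arrays.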

How the data were processed

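The authors measured RNA of 6 cultures on Affymetrix U133 Plus 2.0 arrays and processed the signals in GeneSpring. What they deposited is a linear ratio for every probe set on each array, that is, its signal over the probe set's median over the 6 arrays (median 1 in 50737 of 54675 probe sets, tolerance 1e-05, and below 1 in 3938). How background was corrected and arrays scaled beforehand is not given in the sources used for this text. Value columns of no mapped sample numbered 0.

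Left out were 62 control probe sets. Of the others, 41091 had a single gene symbol in the platform annotation, 1801 had several and 11721 had none, and 13 probe sets that name a member beside another gene were not used. The log2 of each ratio was taken without a floor, and probe sets of a gene were averaged. Values of the 1 Y-linked member are not reported. The groups were fitted in limma 3.58.1 (R 4.3.3) (lmFit and eBayes, no intensity trend, two-sided), with Benjamini-Hochberg adjustment over all 19775 genes. The calls use the study's fold of 2 and p under 0.05, which carry no correction. With 3 arrays a group, precision is limited.

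The members, lists and tests were chosen with earlier results of these data known. Named are the 10 largest rises and 10 largest falls, up to 4 members of each role list by smallest p, the 4 members with most probe sets, and others where stated. For the differences within a clone, arrays of the same clone were taken as pairs because they come from the same clone. The main fit, which gave the calls, SEs and p values, did not use the pairs. Only the alternative with the clone as a block did. The correlation of their deviations from the group means was 0.04 (CL4), 0.05 (CL9) and 0.03 (CL46). The fit was also run on simulated log2 values with known changes, drawn independently for each array and without clone effects. That run was a check of the calculation and not of how the fit behaves on these data. Alternatives were the clone as a block, other array scalings, a floor, other choices of probe set, unmoderated variances, another fold threshold, and each clone left out in turn.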

Additional observations from a re-analysis of the deposited data

How the results depend on the processing

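Without moderation of the variances, 4 members were higher and 8 lower, against 10 and 15, and of all genes 1.87% and 4.75%, against 3.12% and 6.32%. Leaving out a clone gave 10 to 16 higher and 17 to 19 lower, but of the original 10 and 15 calls only 4 and 6 remained without CL4, 5 and 9 without CL9, and 4 and 7 without CL46. The replicate block on the clone gave 10 higher and 14 lower, of which 8 and 11 were among the original calls. Beside the 6 lost calls given above it changed no other call of a named gene. Adjusted p under 0.05 was reached by 0 members under each alternative run in limma. The median of the members moved to 0.12 with each array centred on its median, where that of all genes moved to 0.08, and to 0.12 after quantile normalization, where that of all genes moved to 0.11, shifts of over 0.1. Leaving out a clone gave medians of -0.056 (without CL9) to 0.023 (without CL46). Both scalings also ended the calls of LINC00423 and LINC00621 (and of LINC00662, above), centring alone that of LINC00348, and quantile normalization alone that of LINC00997. Taking the probe set with the widest range ended the calls of LINC00226, LINC00348, LINC00423, LINC00621, LINC00917 and LINC00997. Dropping probe sets of median below 1 ended those of LINC00348 and LINC00917. Of these, LINC00348, LINC00423, LINC00621 and LINC00917 have 1 probe set each, of median not below 1, so their log2 differences stayed the same. Only their p changed in the refit, from unadjusted values of 0.047 to 0.050 in the main limma fit to values past 0.05. With the scalings 52.2% and 45.8% of the members' calls were lower, against 60.0%, and of all calls 57.2% and 52.1%, against 67.0%. With a clone left out, LINC00632 ranged from -0.86 (without CL9, a change of sign) to 1.88, and LINC00844 from -3.84 to 0.059 (without CL4, a change of sign). The share with 1 direction in all clones ranged from 26.2% to 29.7% under the alternatives with 3 clones and was not computed with 2. The number of arrays limits the precision, and with no brightness in the values, signal over background is unknown. The causes were not tested.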
